A study of Mus musculus with 12 samples.

Results

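The interferon regulatory factor (IRF) genes are a small family of transcription factors, and 8 of them, Irf1, Irf2, Irf3, Irf4, Irf5, Irf7, Irf8 and Irf9, were examined here. They were taken by gene symbol, whatever their level, from the 24421 gene symbols measured by bulk RNA sequencing in 12 mouse tumours. The tumours were 425-ICC, a murine intrahepatic cholangiocarcinoma, which arises from bile ducts within the liver, and all were collected at matched times after 8 days of treatment. There were 3 samples in each of 4 groups. Combination tumours received GC together with dual immune checkpoint blockade (ICB), GC tumours received GC alone, ICB tumours received dual blockade alone, and Control tumours received control IgG. GC is the chemotherapy of the study, which the labels abbreviate, and the 2 blockade targets named in the study's title are CTLA-4 and PD1. The labels give no strain, sex, age, genotype or site of the tumours and no batch, and which sample came from which animal is not given. The p-values therefore rest on the scatter among these 12 samples, part of which may be technical. Levels are the authors' FPKM (fragments per transcript length and per total mapped fragments), for which the sequencing depth is unknown, so no counting interval can be given.

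All IRF proteins share an amino-terminal DNA-binding domain that recognises GAAA repeats. IRF3 and IRF7 are switched on by the kinases that act after nucleic acid sensors and drive type I interferon genes, IRF9 is the DNA-binding subunit of ISGF3, which turns on interferon-stimulated genes, and Irf7 is itself such a gene. IRF1 and IRF2 bind similar sites, IRF1 mostly as an activator induced by interferon gamma and IRF2 mostly as its antagonist. IRF4, IRF5 and IRF8 are known mainly from lymphocytes and myeloid cells: IRF5 acts after Toll-like receptors in macrophages, IRF8 is needed for monocytes and some dendritic cells, and IRF4 for plasma cells and activated T cells.

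In GRCm38 (mm10), the build of the submitters' processing notes, GENCODE M21 places the 8 genes on 6 chromosomes. Irf1 lies on the plus strand at chr11:53770014-53778374, Irf2 on the plus strand at chr8:46739732-46847458 and Irf3 on the plus strand at chr7:44997648-45002848. Irf4 lies on the plus strand at chr13:30749226-30766976 and Irf5 on the plus strand at chr6:29526625-29541871. Irf7 is the member on the minus strand, at chr7:141262706-141266481. Irf8 lies on the plus strand at chr8:120736358-120756694 and Irf9 on the plus strand at chr14:55603571-55610030. Irf5 shares 411 exon bases, 14.1% of its own, with Tnpo3 on the opposite strand. Irf1, Irf3, Irf7 and Irf9 share between 1.19% and 3.4% of their exon bases with a neighbour. Whether strand was used in counting is not given in the sources used here, so reads from such shared stretches cannot be told apart.

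Promoter windows, from 250 bases before to 50 bases after each annotated start, were taken from RefSeq (GRCm38.p6), and 8 of 8 members matched. They were searched on both strands for the core of the interferon-stimulated response element bound by ISGF3 (ISRE, a pair of GAAA runs 2 bases apart), the gamma-activated site of interferon gamma responses (GAS, TTCNNNGAA) and a shorter IRF core (AANNGAAA), which every ISRE core contains. The ISRE core was present in 3.44%, the GAS in 8.3% and the IRF core in 23.9% of the 32851 windows in the table. Counted by gene, with a match in any window, the shares were 3.99%, 9.55% and 26.7% of 27025 genes. Irf7 and Irf9 are shown because they are the pair of members that followed each other most closely across the samples, Irf8 and Irf2 because their windows hold matches. Capitals mark matched letters, positions count from the annotated start, and each line reads 5′ to 3′ on the strand of the gene.
Irf7, chr7:141266375-141266674, minus strand: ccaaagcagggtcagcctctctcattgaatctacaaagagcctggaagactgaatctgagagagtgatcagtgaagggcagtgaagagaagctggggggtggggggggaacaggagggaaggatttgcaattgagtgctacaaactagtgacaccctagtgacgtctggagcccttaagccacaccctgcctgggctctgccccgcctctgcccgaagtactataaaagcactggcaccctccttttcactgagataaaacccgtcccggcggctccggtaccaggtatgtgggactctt
Irf9, chr14:55603735-55604034, plus strand: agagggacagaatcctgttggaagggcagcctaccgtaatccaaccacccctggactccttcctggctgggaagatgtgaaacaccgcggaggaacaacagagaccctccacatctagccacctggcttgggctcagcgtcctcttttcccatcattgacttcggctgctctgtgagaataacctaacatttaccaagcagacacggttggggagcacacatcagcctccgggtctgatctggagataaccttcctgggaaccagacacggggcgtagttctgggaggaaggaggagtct
Irf8, chr8:120736108-120736407, plus strand: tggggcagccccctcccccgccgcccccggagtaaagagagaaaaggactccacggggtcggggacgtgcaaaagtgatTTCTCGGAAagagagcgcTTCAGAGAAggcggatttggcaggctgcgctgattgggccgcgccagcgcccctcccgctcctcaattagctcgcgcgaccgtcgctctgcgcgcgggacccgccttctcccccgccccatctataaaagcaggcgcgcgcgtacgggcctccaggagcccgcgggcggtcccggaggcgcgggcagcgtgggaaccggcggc
Irf2, chr8:46739495-46739794, plus strand: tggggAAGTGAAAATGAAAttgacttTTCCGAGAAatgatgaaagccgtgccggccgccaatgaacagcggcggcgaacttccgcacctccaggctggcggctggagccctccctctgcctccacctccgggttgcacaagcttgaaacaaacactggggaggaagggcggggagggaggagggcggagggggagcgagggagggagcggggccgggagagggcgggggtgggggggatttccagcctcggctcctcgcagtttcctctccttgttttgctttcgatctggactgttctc
The Irf2 window held an ISRE core (GAAAATGAAA) at position -241, overlapped by IRF cores at -245 and -239, and a GAS (TTCCGAGAA) at -224. The Irf8 window held a GAS at -171 (TTCTCGGAA) and another at -153 (TTCAGAGAA). The first of the Irf1 windows held a GAS (TTCCCCGAA) at -90. None of these letters stood in the windows of Irf3, Irf4, Irf5, Irf7 or Irf9, which says nothing of sites elsewhere.

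Some libraries held many transcripts typical of other tissues, and their source was not tested. The summed level of 8 hepatocyte genes ranged from 4076 to 71696 FPKM in Combination tumours, 437 to 4356 FPKM in GC tumours, 217 to 1401 FPKM in ICB tumours and 4.78 to 67.8 FPKM in Control tumours. Combination replicate 1 held 5453 FPKM of 8 small intestine genes, against at most 539.5 FPKM in any other library. GC replicate 2 held 2909 FPKM and Control replicate 2 held 978 FPKM of 7 skeletal muscle genes, against 2.22 to 14.4 FPKM in the other 10 libraries. That pair is called muscle-bearing below, for these transcripts only. Biliary markers were uneven, and Krt19, a bile duct keratin, was listed at 0 in Control replicates 2 and 3. In bulk tissue, fewer cells of a type and less RNA per cell cannot be told apart. Comparisons with Control share its samples, as do the comparisons that contain Combination, GC or ICB.

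Among the members, Irf7 changed with GC. It was called higher in Combination than in Control tumours, higher in Combination than in ICB tumours, and higher with GC than without when both blockade settings were averaged. No other member was called in any of the 7 comparisons, each tested with limma on log2(FPKM + 1), with p-values adjusted by the Benjamini-Hochberg method over the 12765 genes whose mean was at least 1 FPKM. A call is an adjusted p under 0.05. Irf4 lay below that mean, so 7 of the 8 members were tested.

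Irf7, the factor that amplifies type I interferon expression, measured 30.9, 23.8 and 11.3 FPKM in the Combination tumours (replicates 1 to 3) and 11.4, 70.6 and 17.2 FPKM in the GC tumours. It measured 1.98, 1.35 and 3.27 FPKM in the ICB tumours, and 1.06, 4.31 and 0.934 FPKM in the Control tumours. All 6 tumours that received GC lay above all 6 that did not, and GC replicate 2 stood above the rest. The share of all genes that separate the tumours this fully was not counted, here or for the genes below. For 3 samples against 3, 18.6% of all genes were higher without overlap in GC against Control and 9.47% in Combination against ICB. The lowest and highest libraries differed 75.5-fold, the widest span of the 7 tested members. Group means were 22.0 ± 9.91 FPKM in Combination, 33.1 ± 32.6 FPKM in GC, 2.20 ± 0.982 FPKM in ICB and 2.10 ± 1.91 FPKM in Control (SD, n = 3 each).

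Combination tumours had 10.5 times the mean Irf7 level of Control tumours. The log2(FPKM + 1) difference was 2.95 ± 0.63 (SE; limma, adjusted p = 0.0242), where 3.95% of all genes were called and 1 of 7 members. Against ICB tumours the mean ratio was 10.0, with a log2 difference of 2.79 ± 0.63 (limma, adjusted p = 0.0445), where 2.24% of all genes and 1 of 7 members were called. GC tumours had 15.7 times the mean of Control tumours, with a log2 difference of 3.19 ± 0.63 that was not called (limma, adjusted p = 0.137). In that comparison 0.00783% of all genes and 0 of 7 members were called by limma, while 4 of 7 members and 9.86% of all genes had an unadjusted p under 0.05. The GC effect averaged over blockade, which uses all 12 samples, was 2.99 ± 0.44 (95% interval 2.02 to 3.96; limma, adjusted p = 0.00492), with 3.36% of all genes and 1 of 7 members called.

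The averaged GC effect on Irf7 passed the threshold under every alternative run, with adjusted p between 0.00121 and 0.0398. The pairwise calls were less stable. Irf7 in Combination against Control missed the threshold without Combination replicate 2 (adjusted p = 0.0879), without Control replicate 1 (adjusted p = 0.0991) and without Control replicate 3 (adjusted p = 0.105). It also did so with no minimum level (adjusted p = 0.0523) and with only the 2 groups in the fit (adjusted p = 0.0806), and the range over all alternatives was 0.00267 to 0.156. Irf7 in Combination against ICB was lost without Combination replicate 2, GC replicate 3, Control replicate 1 or 3, or any 1 ICB replicate, with adjusted p up to 0.183. It was also lost with no minimum level (adjusted p = 0.0839), with only the 2 groups in the fit (adjusted p = 0.0917) and with a hepatocyte covariate (adjusted p = 0.0719). Irf7 in GC against Control gained a call without Combination replicate 1 (adjusted p = 0.0482), a library that enters only through the shared spread.

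The muscle-bearing libraries were the highest of their own groups for Irf7, GC replicate 2 at 70.6 FPKM and Control replicate 2 at 4.31 FPKM. Without that pair the averaged GC effect on Irf7 was 2.85 (limma, adjusted p = 0.0133), Combination against Control stood at 3.42 (limma, adjusted p = 0.0106) and GC against Control at 2.91 (limma, adjusted p = 0.431). With the hepatocyte list as a covariate the averaged effect on Irf7 was 3.63 (adjusted p = 0.0398), while Combination against Control, at 4.07, was no longer called (adjusted p = 0.156) and GC against Control, at 3.86, was (adjusted p = 0.0362). The mean log2 level of that list was 0.508 to 2.30 in Control, 4.67 to 7.52 in GC and 5.64 to 11.5 in Combination tumours. Control did not overlap either group, so these fits against Control cannot separate the covariate from treatment. Over the 12 libraries the lists closest to Irf7 were dendritic cell (r = 0.789) and B and plasma cell (r = 0.766). Hepatocyte (r = 0.559) and T cell (r = 0.55) lists came next. After subtraction of group means the skeletal muscle list came first (r = 0.884), then T cell (r = 0.679). B and plasma cell (r = 0.672) and dendritic cell (r = 0.614) followed, and hepatocyte turned negative (r = -0.314). No B and plasma cell gene averaged 1 FPKM, and most dendritic cell genes did not, so these lists rest largely on low values. Ccl22, a chemokine of dendritic cells, rose in the averaged GC effect by 1.26 ± 0.25 (limma, adjusted p = 0.0214). It was the 1 called of 3 tested genes of its list, with 3.36% of all genes called. The summed dendritic cell list was 7.91 to 10.4 FPKM in Combination, 9.72 to 20.1 FPKM in GC, 4.72 to 9.54 FPKM in ICB and 1.56 to 7.76 FPKM in Control tumours, and the part of these cells in the Irf7 level was not tested.

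Dual blockade left Irf7 within its spread. ICB against Control differed by 0.17 ± 0.63 on the log2 scale (95% interval -1.21 to 1.54; limma, adjusted p = 1), and Combination against GC by -0.24 ± 0.63 (95% interval -1.62 to 1.14; limma, adjusted p = 0.799). The sign of the second difference turned under TMM scaling (0.17), with the hepatocyte covariate (0.21) and without the muscle-bearing pair (0.51). The interaction of GC and ICB, the Combination minus GC difference less the ICB minus Control difference, was -0.41 ± 0.89 for Irf7 (limma, adjusted p = 0.887). These intervals are wide, so similar levels with and without blockade were not shown.

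**Figure D1:**
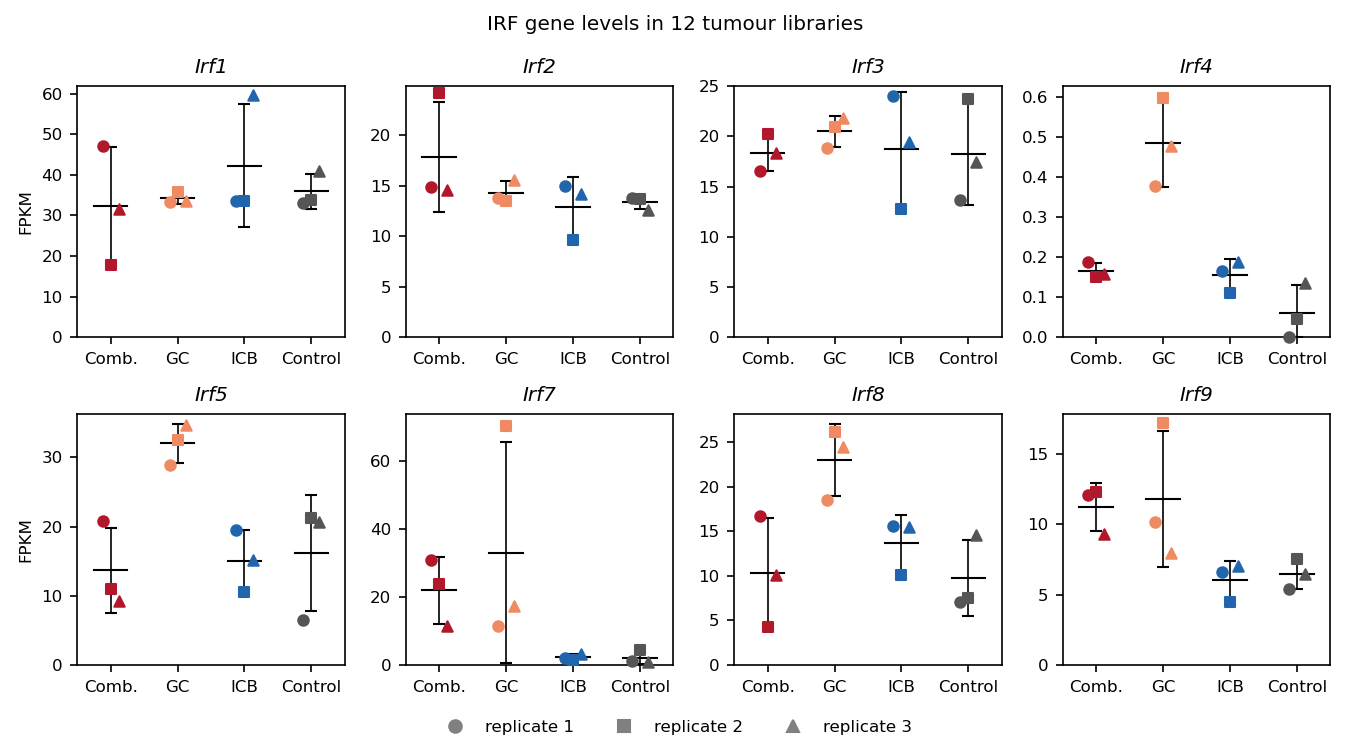
FPKM of the 8 IRF genes in each library, 1 panel per gene with its own linear axis from 0. Markers are replicates 1 to 3, bars are group means and error bars SD (n = 3), with none drawn below 0. Irf7 lies at 11.3 FPKM or above in all 6 tumours with GC and at 4.31 FPKM or below in the other 6.

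Irf9, the DNA-binding subunit of ISGF3, followed Irf7 over a narrower range. It measured 12.1, 12.3 and 9.28 FPKM in the Combination tumours and 10.2, 17.2 and 7.99 FPKM in the GC tumours. It measured 6.58, 4.48 and 7.02 FPKM in the ICB tumours and 5.37, 7.53 and 6.46 FPKM in the Control tumours. As with Irf7, all 6 tumours with GC lay above all 6 without. Mean ratios were 1.74 for Combination over Control, 1.86 for Combination over ICB and 1.83 for GC over Control. The averaged GC effect on Irf9 was 0.77 ± 0.20 (95% interval 0.33 to 1.21), and it missed the threshold (limma, adjusted p = 0.0641; 0.0544 to 0.195 over the alternatives). Over the 12 libraries the log2 levels of Irf7 and Irf9 correlated with r = 0.939, and with r = 0.841 after subtraction of group means. These points share library composition and scaling, and GC replicate 2 was the highest for both genes. Control replicate 2, also muscle-bearing, was the highest Control library for both. After subtraction of group means Irf9 followed the skeletal muscle list too (r = 0.76), as Irf7 did (r = 0.884).

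Stat2, a partner of IRF9 in ISGF3, rose with GC in the averaged effect. It measured 8.51, 15.4 and 8.62 FPKM in Combination, 6.39, 14.6 and 6.75 FPKM in GC, 5.27, 2.34 and 5.02 FPKM in ICB and 2.85, 5.39 and 3.36 FPKM in Control tumours. Its averaged GC effect was 1.10 ± 0.27 (limma, adjusted p = 0.0476), with all 6 tumours with GC above all 6 without.

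**Figure D2:**
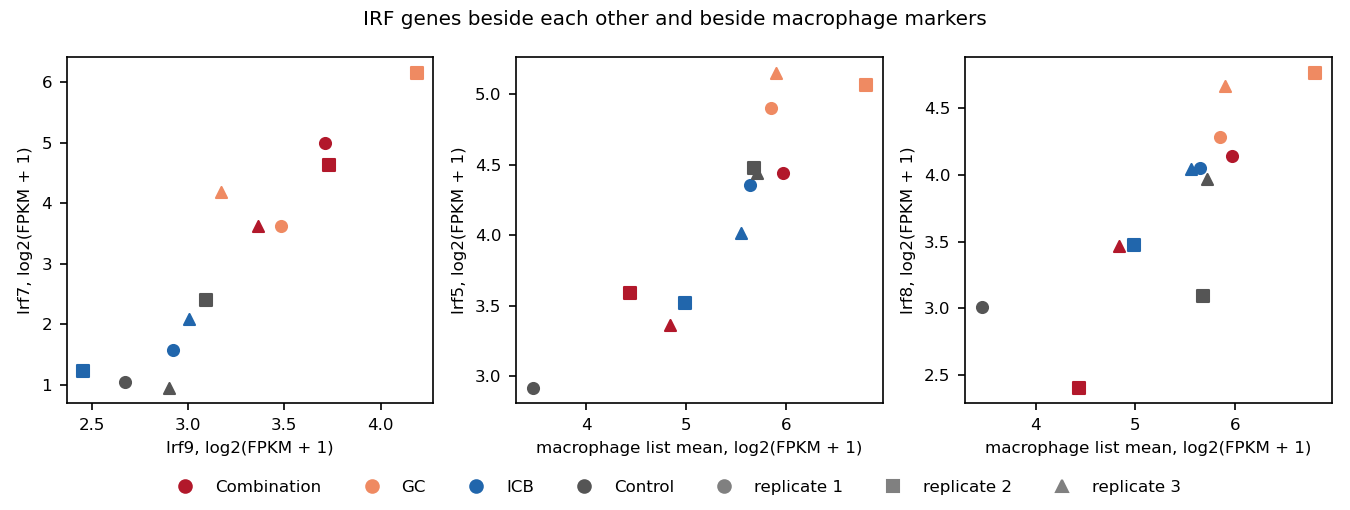
Log2(FPKM + 1) per library (n = 12, colours by group, shapes by replicate): Irf7 against Irf9, and Irf5 and Irf8 against the mean log2 level of 10 macrophage markers. Irf7 and Irf9 separate the 6 libraries with GC from the 6 without (r = 0.939), while Irf5 (r = 0.908) and Irf8 (r = 0.799) run along the macrophage axis.

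Irf5 and Irf8, the myeloid members, were highest in tumours given GC alone. Irf5 measured 20.7, 11.0 and 9.28 FPKM in the Combination tumours and 28.9, 32.5 and 34.6 FPKM in the GC tumours. It measured 19.5, 10.5 and 15.2 FPKM in the ICB tumours and 6.56, 21.3 and 20.7 FPKM in the Control tumours. Every GC tumour lay above the other 9 tumours for Irf5, and the other 3 groups overlapped. The share of all genes with GC tumours above all others was not counted either. The GC mean was 1.98 times the Control mean, with a log2 difference of 1.10 ± 0.43 (limma, adjusted p = 0.415). The Combination mean was 0.427 of the GC mean, with a log2 difference of -1.24 ± 0.43 (limma, adjusted p = 0.247), so neither was called.

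Irf8 measured 16.7, 4.30 and 10.1 FPKM in the Combination tumours and 18.5, 26.2 and 24.4 FPKM in the GC tumours. It measured 15.6, 10.1 and 15.5 FPKM in the ICB tumours and 7.08, 7.52 and 14.6 FPKM in the Control tumours. The lowest GC tumour lay above the highest of the other 9, Combination replicate 1. The log2 difference of Irf8 was 1.22 ± 0.41 in GC against Control (limma, adjusted p = 0.336) and -1.23 ± 0.41 in Combination against GC (limma, adjusted p = 0.243). The interaction was -1.73 ± 0.59 (limma, adjusted p = 0.478), and in that comparison 0.0157% of all genes and 0 of 7 members were called. At an unadjusted p under 0.05 there was 1 member, Irf8, and 8.09% of all genes.

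In Combination against GC 0.666% of all genes and 0 of 7 members were called by limma, with 2 members and 16.5% of all genes at an unadjusted p under 0.05. Without Combination replicate 1, the library with small intestine transcripts, Irf5 fell by 1.57 (adjusted p = 0.0337) and Irf8 by 1.64 (adjusted p = 0.0194) on the log2 scale in that comparison, and the Irf8 interaction was -2.14 (adjusted p = 0.0435). Without that library 3014 genes in all were called in Combination against GC and 812 in the interaction. With the hepatocyte covariate the Irf8 difference in GC against Control was 2.24 (adjusted p = 0.0213), where 592 genes in all were called. The hepatocyte list did not overlap between GC and Control tumours, so this fit cannot separate it from treatment. Within groups the hepatocyte list and Irf8 ran in opposite directions, with r = -0.777 over the 12 libraries after subtraction of group means.

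Macrophage markers moved with both genes, and fibroblast and dendritic cell markers did so less closely. The sum of 10 markers was 1429, 438 and 641 FPKM in Combination, 1378, 2584 and 1701 FPKM in GC, 1100, 687 and 1132 FPKM in ICB and 225, 992 and 1099 FPKM in Control tumours. None of the 10 was called in GC against Control, where 0.00783% of all genes were. All 10 had a positive difference there, with a median of 1.27, against 58.1% of all genes and a median of 0.09. The mean log2 level of these markers correlated over the 12 libraries with Irf5 (r = 0.908) and with Irf8 (r = 0.799), and after subtraction of group means r was 0.91 for Irf5 and 0.683 for Irf8. The log2 differences of the markers in GC against Control ran between 0.48 (Cd68) and 1.92 (Aif1). Those of Irf5 and Irf8 lay above Cd68, Ptprc, Csf1r, Adgre1 and Mrc1, and below Fcgr1, C1qa, C1qb, C1qc and Aif1. Fibroblast genes were also high in GC: the sum of 7 was 319 to 1521 FPKM in Combination, 2509 to 4422 FPKM in GC, 1090 to 2325 FPKM in ICB and 876 to 1663 FPKM in Control tumours. None of this list of 7 was called in GC against Control or in Combination against GC, where 0.00783% and 0.666% of all genes were. That list correlated with Irf8 (r = 0.726, and 0.419 after subtraction of group means) more than with Irf5 (r = 0.472 and 0.0020). The dendritic cell list correlated with Irf5 (r = 0.66 and 0.55) and with Irf8 (r = 0.609 and 0.319). The part of these cell types in the Irf5 and Irf8 levels was not tested.

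Irf4, the lymphoid member, was barely measured. It measured 0.188, 0.151 and 0.157 FPKM in Combination, 0.378, 0.598 and 0.478 FPKM in GC, 0.165, 0.111 and 0.189 FPKM in ICB and 0, 0.0453 and 0.136 FPKM in Control tumours. The 3 GC tumours lay above the other 9, and Control replicate 1 was listed at 0. With a mean of 0.216 FPKM over 12 libraries Irf4 did not enter the tests. When no minimum was set (18672 genes), its log2(FPKM + 1) difference was 0.48 ± 0.07 in GC against Control (limma, adjusted p = 0.0788). The averaged GC effect was 0.25 ± 0.05 (limma, adjusted p = 0.0346). Its other part, Combination against ICB, was 0.014 ± 0.069 (limma, adjusted p = 0.968), and the interaction was -0.47 ± 0.10 (limma, adjusted p = 0.193). A rise of Irf4 with GC under blockade was therefore not shown. The share of all genes called in the averaged fit without a minimum is not given here. Plasma cell and B cell markers were also low, with sums over 7 genes of at most 6.13 FPKM, mostly Jchain in Combination replicate 1 (5.67 FPKM), and none at a mean of 1 FPKM.

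Irf1, Irf2 and Irf3 gave no call in any comparison. Irf1 was the most abundant member by group mean in every group, at 47.2, 17.9 and 31.7 FPKM in Combination, 33.3, 35.9 and 33.5 FPKM in GC, 33.5, 33.5 and 59.8 FPKM in ICB and 33.1, 33.8 and 40.9 FPKM in Control tumours. The groups overlapped, and ICB replicate 3 and Combination replicate 2 were the extremes. The averaged GC effect on Irf1 was -0.25 ± 0.24 (95% interval -0.77 to 0.28; limma, adjusted p = 0.576). Irf1 in ICB against Control differed by 0.18 ± 0.34 (95% interval -0.57 to 0.93), in a comparison where 0% of all genes and 0 of 7 members were called by limma. At an unadjusted p under 0.05 that comparison had 0 members and 1.75% of all genes.

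Irf2, the antagonist of IRF1, measured 14.8, 24.1 and 14.6 FPKM in Combination, 13.8, 13.5 and 15.6 FPKM in GC, 15.0, 9.59 and 14.2 FPKM in ICB and 13.8, 13.7 and 12.6 FPKM in Control tumours. Each Combination tumour lay above each Control tumour, by little except in replicate 2. The log2 difference was 0.36 ± 0.25 (95% interval -0.19 to 0.90; limma, adjusted p = 0.348). Combination replicate 2 thus held the highest Irf2 and the lowest Irf1 and Irf8 of the 12 libraries, and also the most hepatocyte transcripts, 71696 FPKM. Its ratio of Irf1 to Irf2 was 0.741, against at least 2.15 in the other 11 libraries.

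Irf3, the constitutive factor that responds first to nucleic acid sensing, varied least of the 7 tested members. It measured 16.6, 20.2 and 18.3 FPKM in Combination, 18.8, 20.9 and 21.8 FPKM in GC, 24.1, 12.8 and 19.5 FPKM in ICB and 13.6, 23.7 and 17.5 FPKM in Control tumours, with all groups overlapping. The averaged GC effect on Irf3 was 0.10 ± 0.19 (95% interval -0.32 to 0.52; limma, adjusted p = 0.793). The ratio of Irf7 to Irf3 was 1.87, 1.18 and 0.619 in Combination and 0.604, 3.37 and 0.790 in GC, against 0.0821, 0.105 and 0.168 in ICB and 0.0779, 0.182 and 0.0534 in Control tumours. Irf7 thus stood well below Irf3 in all 6 tumours without GC, and above it in 3 of the 6 with GC.

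**Figure D3:**
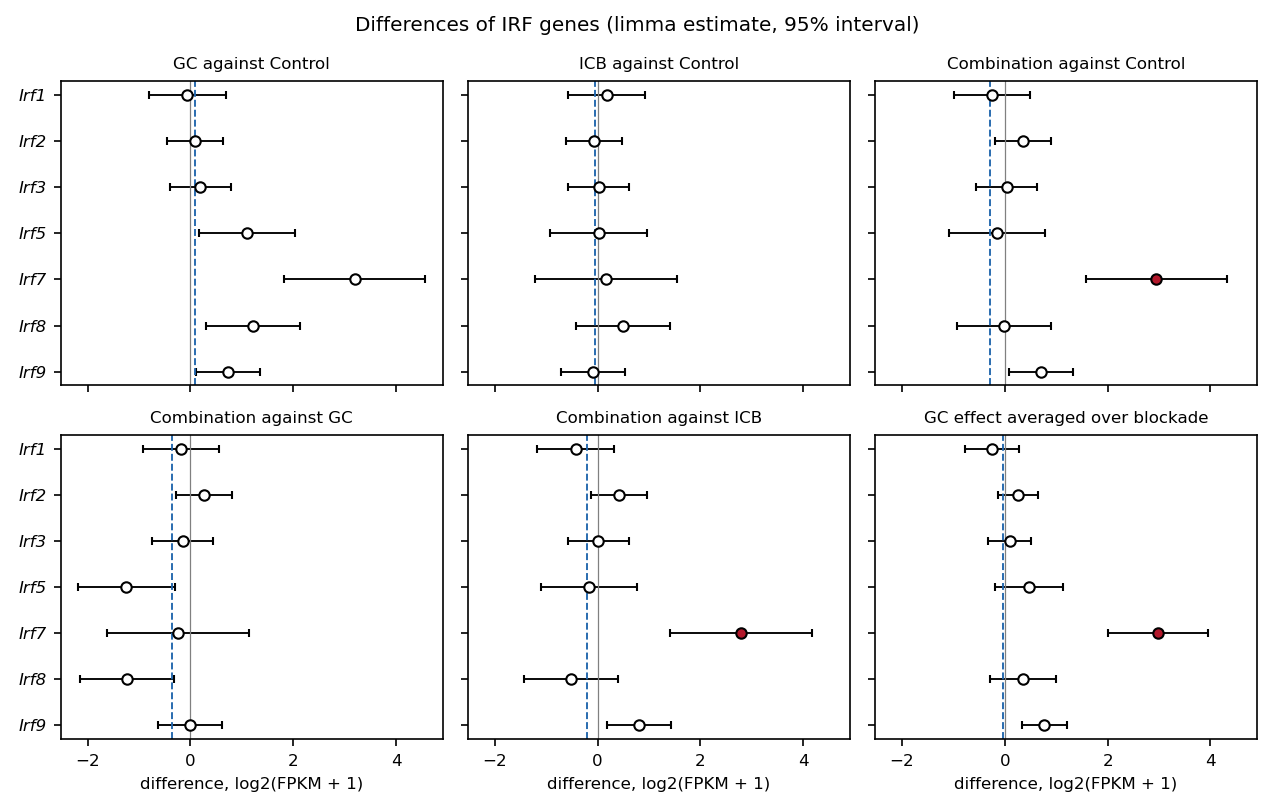
Log2(FPKM + 1) differences of the 7 tested IRF genes in 6 comparisons, with 95% intervals from limma. Filled red points have an adjusted p under 0.05, the dashed line is the median of all 12765 genes and the grey line is 0; red points are Irf7 in Combination against Control (2.95), Combination against ICB (2.79) and the averaged GC effect (2.99).

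The median log2 difference of the 7 tested members was 0.73 in GC against Control, against 0.09 over all genes. It was 0.04 in Combination against Control, against -0.29 over all genes, and 0.35 for the averaged GC effect, against -0.04 over all genes. In Combination against GC it was -0.18 and over all genes -0.36, a comparison in which TMM scaling moved the median of all genes by 0.35. Among the tested members, groups did not overlap for Irf5, Irf7, Irf8 and Irf9 in GC against Control, all higher, where 18.6% of all genes were higher without overlap. In Combination against Control Irf2, Irf7 and Irf9 were higher without overlap, where 9.74% of all genes were. In Combination against ICB Irf7 and Irf9 were higher without overlap, where 9.47% of all genes were, and in Combination against GC Irf5 and Irf8 were lower, where 14.2% of all genes were. Irf4, which was not tested, was likewise higher in GC and in Combination than in Control tumours and lower in Combination than in GC tumours, without overlap.

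The makeup of the family's RNA differed accordingly. Irf7 made up 10.8% to 20.9% of the summed IRF FPKM in Combination and 8.41% to 32.5% in GC tumours, against 1.63% to 2.43% in ICB and 0.820% to 3.85% in Control tumours. Irf1 made up 15.7% to 30.3% in Combination and 16.5% to 24.6% in GC tumours, against 28.8% to 44.4% in ICB and 30.2% to 41.1% in Control tumours. The summed level of the 8 genes was 126 ± 29.2 FPKM in Combination, 169 ± 42.7 FPKM in GC, 111 ± 26.5 FPKM in ICB and 102 ± 18.6 FPKM in Control tumours (SD, n = 3 each). FPKM is scaled by transcript length, which lets levels of different genes be set side by side.

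**Figure D4:**
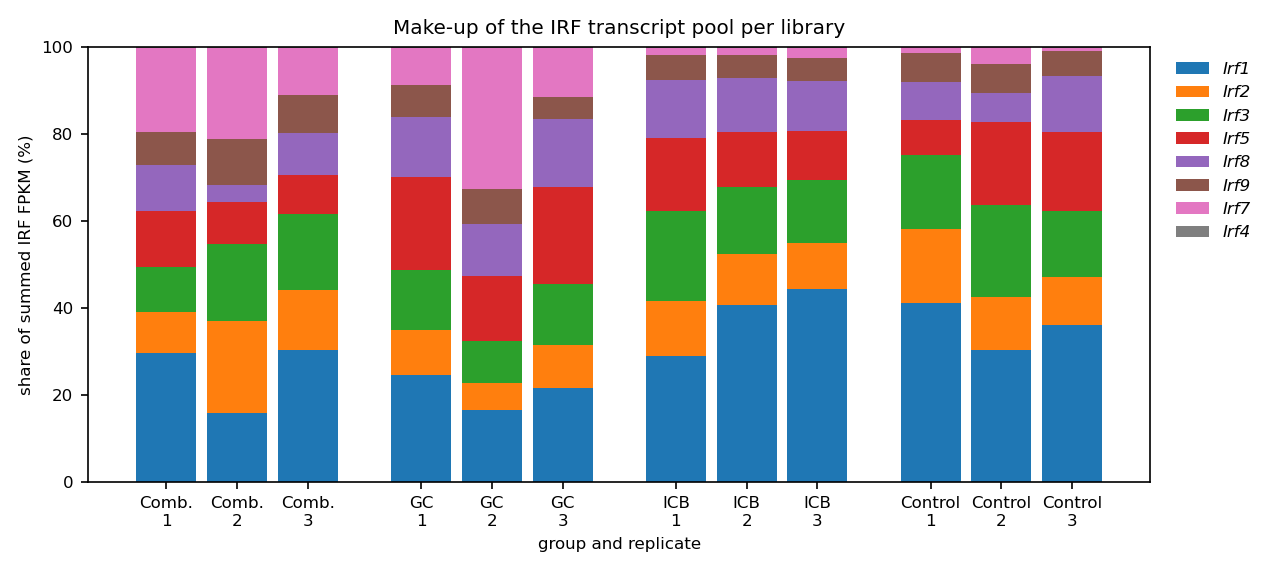
Share of each IRF gene in the summed FPKM of the 8 genes, in percent, 1 stacked bar per library. The Irf7 share is at least 8.41% in the 6 libraries with GC and at most 3.85% in the other 6.

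Interferon genes were scarcely measured, among them the type I genes that IRF3 and IRF7 drive. The 8 listed genes (5 type I, Ifng and 2 type III) were found, summed to at most 0.309 FPKM in any library, and none was tested. Of the 9 genes for interferon receptors, JAK kinases and STATs, 0 were called in GC against Control and 0 in Combination against Control, where 0.00783% and 3.95% of all genes were. In the averaged GC effect 1 of the 9, Stat2, was called. Of the 15 tested genes for sensors, adaptors and kinases that act before IRF proteins, 1, the RNA sensor Ifih1, was called in the averaged GC effect, at 1.12 ± 0.26 (limma, adjusted p = 0.0393). With 3.36% of all genes called in that effect, a single call in a list of 9 or 15 genes is no result about the list. In GC against Control Ikbke, an IRF3 and IRF7 kinase, had a log2 difference of 1.29 ± 0.31 (limma, adjusted p = 0.174), and Ddx58, the sensor RIG-I, one of 0.84 ± 0.32 (adjusted p = 0.414). In Combination against Control Ticam1 and Mavs, adaptors of Toll-like and RIG-I-like receptors, stood at 0.67 ± 0.25 and 0.83 ± 0.31 (limma, adjusted p = 0.131 and 0.136).

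Among 12 tested partners and regulators 1, Usp18, which restrains type I interferon receptor signalling, was called in the averaged GC effect, at 1.90 ± 0.34 (limma, adjusted p = 0.0142). With 3.36% of all genes called there, this single call is no result about the list. Batf3 and Batf2, which can pair with IRF4 or IRF8, had log2 differences of 1.06 ± 0.30 and 1.24 ± 0.43 in GC against Control (limma, adjusted p = 0.237 and 0.345). In Combination against Control Irf2bpl, of the family of IRF2-binding proteins, stood at -1.32 ± 0.42 (limma, adjusted p = 0.0952). No gene of these lists was called lower in any comparison.

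Known ISGF3 target genes were among those that rose with GC. Of 13 tested, 3 rose in Combination against Control, where 3.95% of all genes were called: Rtp4, by 2.17 ± 0.43 (limma, adjusted p = 0.0180), Bst2, the virion-tethering protein, by 2.11 ± 0.48 (adjusted p = 0.0340) and Ifit3 by 2.28 ± 0.52 (adjusted p = 0.0347). In the averaged GC effect, where 3.36% of all genes were called, 7 of 13 rose, Isg15, Ifit1, Ifit3, Mx2, Rsad2, Bst2 and Rtp4, by 1.39 to 2.41 on the log2 scale. In GC against Control 0 of 13 were called and all 13 differences were positive, where 0.00783% of all genes were called and 58.1% had a positive difference. Isg15, a ubiquitin-like modifier, stood at 3.05 ± 0.49 and Ifit3 at 3.11 ± 0.52 there (limma, adjusted p = 0.0869 for each). The levels of Isg15 were 40.1, 14.5 and 9.79 FPKM in Combination and 26.4, 70.2 and 34.6 FPKM in GC, against 3.74, 6.86 and 6.20 FPKM in ICB and 4.42, 5.18 and 2.64 FPKM in Control tumours. Tumours with and without GC again did not overlap, and the share of all genes that separate them so was not counted.

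Of 11 tested genes that IRF1 is known to drive, 0 were called in GC against Control and in Combination against Control. Over all genes 0.00783% and 3.95% were called there. Gbp3, an interferon-inducible GTPase, rose by 1.31 ± 0.30 (limma, adjusted p = 0.0379) and Cxcl10, a T cell attractant, by 1.74 ± 0.42 (adjusted p = 0.0464) in the averaged GC effect. In that effect 2 of 11 were called, and 3.36% of all genes. Irf1 itself stood at -0.25 there. The immunoproteasome gene Psmb9 had a log2 difference of 1.67 ± 0.43 in Combination against Control (limma, adjusted p = 0.0553). ISGF3 also acts on several of these genes, so the lists are not separate readouts of the 2 factors. In Combination against GC, Combination against ICB, ICB against Control and the interaction, 0 genes of the pathway lists were called. Over all genes 0.666%, 2.24%, 0% and 0.0157% were called there.

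The genes most like each member were sought by Pearson correlation of log2(FPKM + 1) over the 12 samples. They are the closest among all tested genes, so high values were bound to be found, and the samples share library composition. Irf7 was most like Zbp1 (r = 0.973), Rtp4 (r = 0.973) and Znrf2 (r = 0.972). Irf9 was most like Parp14 (r = 0.956), Parp12 (r = 0.954) and, as for Irf7, Rtp4 (r = 0.948). Zbp1 averaged 15.7 FPKM in Combination and 21.2 FPKM in GC, against 4.33 FPKM in ICB and 2.48 FPKM in Control tumours.

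Irf5 was most like Arhgap25 (r = 0.973), Nrros (r = 0.971) and Olfm1 (r = 0.971). Irf8 was most like Naaa (r = 0.963), Hexa (r = 0.952) and Romo1 (r = 0.946). Nrros averaged 7.70 FPKM in Combination, 22.4 FPKM in GC, 9.01 FPKM in ICB and 9.66 FPKM in Control tumours. Irf1 was like Anxa7 (r = 0.861) and Ift22 (r = 0.861). Irf2 was most like Tmem19 (r = 0.937), Trabd (r = 0.935) and Ppm1b (r = 0.917), and Irf3 most like Smarcc2 (r = 0.915), Klhdc10 (r = 0.913) and Tmem143 (r = 0.913).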

How the data were processed

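Bulk RNA-seq of 12 tumours was analysed, 3 per group, with groups and replicate numbers from the titles. Per the labels' protocols, the libraries were stranded and made from total RNA. The submitters' processing notes name mm10 and the tools HISAT2, HTSeq, cutadapt, FastQC and SAMtools; versions and the step that made FPKM are not given in the sources used here. The authors deposited FPKM for 24421 symbols, of which 5749 were at 0 in every library. Summed FPKM ranged from 547146 to 660067. Over 66 pairs of libraries, values up to 0.1 FPKM showed no whole-read steps (fullest bin of log2 ratios, width 0.1: median 11.1%, at most 17.3% of genes), so depth is unknown and no count model was used.

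Values were tested as log2(FPKM + 1) with limma 3.58.1 in R 4.3.3: 1 fit of group means over 12 samples, trended empirical Bayes, two-sided, Benjamini-Hochberg adjustment over the 12765 genes averaging 1 FPKM or more, threshold 0.05. The fit was tested on simulated data. Tables and figures used Python 3.11.15. Alternatives were a pseudocount of 0.1, no filter, TMM scaling (computed here, unweighted), a replicate block, a hepatocyte covariate, only the 2 groups compared, and libraries left out. Named were all 8 members, the 3 genes most correlated with each tested member, and from each pathway list the called genes and up to 4 of smallest p in GC and in Combination against Control. Members and lists were chosen with earlier results of these data known, so their counts are not independent support. Another symbol in the range of the family, and some genes that the naming rule covers, are not reported here.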

Additional observations from a re-analysis of the deposited data

How the results depend on the processing

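Over 49 member results and 966 alternatives, 870 kept direction and side of the threshold, 74 turned sign, 16 lost a call and 6 gained one. No called difference turned sign in any alternative, and the cause of the changes was not tested. With TMM scaling the sign turned in GC against Control for Irf2 (-0.033), in ICB against Control for Irf2 (0.0026), in Combination against Control for Irf1 (0.039), Irf5 (0.14) and Irf8 (0.24), in Combination against GC for Irf1 (0.23), Irf3 (0.25), Irf7 (0.17) and Irf9 (0.39), in Combination against ICB for Irf5 (0.039), in the interaction for Irf3 (0.15). With the hepatocyte covariate the sign turned in GC against Control for Irf1 (0.53) and Irf2 (-0.18), in ICB against Control for Irf3 (-0.0010) and Irf9 (0.14), in Combination against Control for Irf1 (0.74), Irf2 (-0.092), Irf3 (-0.027), Irf5 (1.14) and Irf8 (1.71), in Combination against GC for Irf1 (0.22), Irf7 (0.21) and Irf9 (0.21), in Combination against ICB for Irf1 (0.13), Irf3 (-0.026), Irf5 (0.55) and Irf8 (0.45), in the averaged GC effect for Irf1 (0.33) and Irf2 (-0.0034). Without the muscle-bearing pair of libraries the sign turned in ICB against Control for Irf9 (0.0079), in Combination against Control for Irf5 (0.12), in Combination against GC for Irf7 (0.51) and Irf9 (0.28). Without that pair and Combination replicate 1, an alternative chosen after seeing the data, the sign turned in ICB against Control for Irf9 (0.0079), in Combination against GC for Irf7 (0.22) and Irf9 (0.22). Leaving out 1 library at a time turned the sign of uncalled differences in GC against Control for Irf1 (-0.12 to 0.030), in ICB against Control for Irf1 (-0.092 to 0.32), Irf2 (-0.18 to 0.12), Irf3 (-0.17 to 0.27), Irf5 (-0.49 to 0.29), Irf7 (-0.093 to 0.63) and Irf9 (-0.20 to 0.075), in Combination against Control for Irf1 (-0.57 to 0.11), Irf3 (-0.15 to 0.23), Irf5 (-0.66 to 0.12) and Irf8 (-0.42 to 0.45), in Combination against GC for Irf1 (-0.50 to 0.17), Irf7 (-0.76 to 0.51) and Irf9 (-0.23 to 0.28), in Combination against ICB for Irf3 (-0.23 to 0.20) and Irf5 (-0.49 to 0.050), in the averaged GC effect for Irf3 (-0.020 to 0.20), in the interaction for Irf3 (-0.42 to 0.012), Irf7 (-0.92 to 0.34) and Irf9 (-0.14 to 0.37), given as the lowest to highest value over the 12 fits. The number of members called was 1 in the averaged GC effect and 0 in ICB against Control over all libraries left out in turn, and ranged over 0 to 1 in Combination against Control, Combination against ICB, GC against Control and the interaction, and 0 to 2 in Combination against GC. With no filter on low values it was 0 in Combination against Control and against ICB and 2 (Irf7 and Irf4) in the averaged GC effect. With the hepatocyte covariate it was 0 in Combination against Control and against ICB and 2 in GC against Control, and with only the 2 groups in the fit 0 in Combination against Control and against ICB. The hepatocyte list did not overlap between Control and the other groups, so differences against Control with this covariate cannot be separated from treatment.

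Over all genes the counts called moved as follows. Leaving out 1 library gave 0 to 183 in GC against Control (1 with all), 219 to 3167 in Combination against Control (504), 24 to 3014 in Combination against GC (85), 108 to 2050 in Combination against ICB (286), 162 to 1737 in the averaged GC effect (429), 0 to 812 in the interaction (2) and 0 in ICB against Control. The hepatocyte covariate gave 592 in GC against Control, 212 in Combination against Control and 112 in the interaction. The muscle-bearing pair left out gave 0, 149, 15 and 152 in GC against Control, Combination against Control, against GC and against ICB, 113 in the averaged GC effect and 0 in the interaction. With Combination replicate 1 left out as well these were 0, 1443, 909, 1381, 1155 and 213. Only the 2 groups in the fit gave 3 in GC against Control, 94 in Combination against Control, 3 against GC and 27 against ICB. A pseudocount of 0.1 gave 16 in Combination against GC and 0 in the interaction, TMM scaling 48 in Combination against GC and 0 in GC against Control, and no filter 3 in GC against Control and 7 in the interaction. Depth is unknown from FPKM, which limits low members such as Irf4.

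Same-numbered replicates, by the numbers of the titles, did not deviate together uniformly. Over 18 pairs the correlation of deviations from group means ran from -0.24 to 0.42 (median 0.03, with 8 over 0.1), and 5 of 12 libraries correlated best with their own number. The highest was between GC replicate 2 and Control replicate 2, the muscle-bearing libraries. With 3 replicates per group this check cannot exclude pairing. The description field numbers the samples otherwise, and its 13 same-numbered pairs ran from -0.25 to 0.29 (4 over 0.1). With the replicate block no member changed its call (Irf7 averaged GC effect 2.99, adjusted p = 0.00906), and over all genes 3 were called in GC against Control, 53 in Combination against GC and 0 in the interaction.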
